A study of Rattus norvegicus with 46 samples.

Results

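The kidneys of rats given saline and studied 120 h after ischemia-reperfusion (Vehicle 120 h, 5 animals) were compared with the kidneys of naïve rats (5 animals). These 10 arrays were chosen by their titles from the 46 arrays of the study, which hold 10 groups, with 1 array per animal. All animals were male Wister rats (spelled as in the labels) of 200 to 300 g. The Vehicle animals received saline into the peritoneum, 30 min later the artery of the left kidney was closed with a clamp for 45 min, and the right kidney was removed right after reperfusion. The naïve animals were uninjured and untreated, so that the effects of ischemia, loss of the other kidney, surgery with its anesthesia and analgesia, and saline cannot be told apart in this comparison. Each array measured RNA from a small piece cut from the left kidney after it was split lengthwise, and how much cortex and medulla each piece held is not given in the sources used here. Markers of kidney tubules were present at high signals. In naïve kidneys the signal of Umod, the uromodulin of the thick ascending limb, was 4615, 4853, 5927, 5610.1 and 5415.

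After ischemia the straight part of the proximal tubule in the outer medulla suffers most, since its blood supply is poor and its need for oxygen is high. Surviving tubule cells lose their brush border and transporters, return to a less differentiated state, divide, and then differentiate again. In the same days monocytes and macrophages enter the tissue, dead cells are cleared, and interstitial fibroblasts lay down collagen and other matrix proteins, which is resolved when repair succeeds and persists when it does not.

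The deposited values are linear signals per probe set, and every change below is a difference of log2(signal + 16) between group means. Of the 14607 probe sets tested with limma, 489 (3.35%) were called, meaning at least 2-fold different with an adjusted p under 0.05. Of these, 268 (1.83%) were higher and 221 (1.51%) lower in Vehicle 120 h kidneys. These shares are to be set beside the counts of list members below. With an offset of 1 in place of 16 the split was 456 higher and 238 lower, and after quantile normalization it was 185 higher and 247 lower. For 223 of the 489 called probe sets the 5 Vehicle animals did not overlap the 5 naïve animals. Over all probe sets tested, all 5 Vehicle animals were above the naïve range in 736 (5.04%) and below it in 444 (3.04%). In an array of whole tissue, fewer cells of a type and less RNA per cell cannot be told apart.

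One injured animal differed from the other 4. In Vehicle replicate 1 the median difference from the naïve mean was 0.31 over the probe sets called up and -0.40 over those called down, while in replicates 2 to 5 these medians ran from 1.30 to 1.72 and from -1.86 to -1.53. Without this animal 914 probe sets (6.26%) were called, and they held 488 of the 489. Leaving out any of the other 9 arrays lowered the count, to 286, 279, 383 and 204 without Vehicle replicates 2, 3, 4 and 5, and to 478, 333, 391, 354 and 401 without naïve replicates 1 to 5. The labels do not set replicate 1 apart, and it was kept in its group. Whether its kidney was injured to the same degree was not tested.

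**Figure D1:**
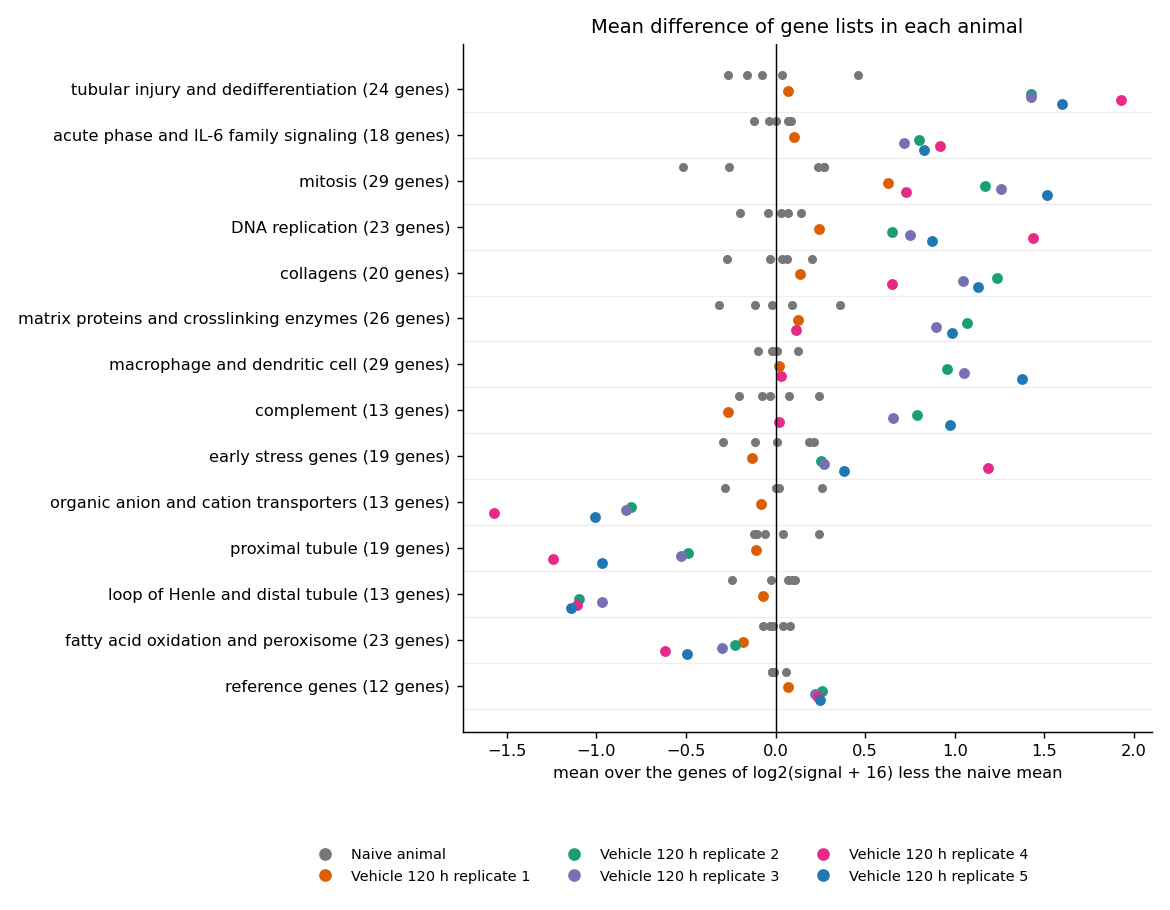
Each point is 1 animal, and the horizontal axis is the mean over the genes of a list of log2(signal + 16), less the naïve mean, with naïve animals in grey and the 5 Vehicle 120 h animals in colour. Vehicle replicate 1 lies among the naïve animals for tubular injury genes (0.07) but above them for mitosis genes (0.63), and Vehicle replicate 4 lies near naïve for macrophage genes (0.03) while it has the highest early stress mean (1.19).

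The 2 largest rises among named genes were those of tubular injury genes. Of 24 measured members of a list of 29 injury and dedifferentiation genes, 14 rose, where 1.83% of all probe sets tested did, and none fell. Their median log2 change was 1.09 against 0.07 over all 17245 genes measured. Havcr1, which encodes kidney injury molecule-1, a receptor on tubule cells that binds dying cells, had signals of 72.0, 31.5, 27.1, 33.0 and 25.5 in the naïve kidneys. In Vehicle replicates 1 to 5 its signals were 17.8, 3428, 3349.6, 4236 and 4332. Replicate 1 was thus below every naïve animal and the other 4 were far above all of them. The log2 change was 4.85 ± 0.96 (SE, adjusted p = 0.0030), and 6.21 without replicate 1.

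Lcn2, the iron-carrier binding protein lipocalin-2, had naïve signals of 161, 44.8, 145, 170.5 and 163. Its Vehicle signals were 158, 2088, 1921, 3967 and 2534, with replicate 1 inside the naïve range. Its log2 change was 3.39 ± 0.69 (adjusted p = 0.0035). Vim, an intermediate filament protein of mesenchymal and dedifferentiated cells, was 1174, 664, 1036, 944 and 935 in naïve and 1239, 3644, 3997, 2670.4 and 4066 in Vehicle kidneys. The groups did not overlap for Vim, with a log2 change of 1.60 ± 0.33 (adjusted p = 0.0033), and replicate 1 lay just above the highest naïve animal.

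Other genes linked to the injured tubule rose as well. Cd44, the hyaluronan receptor, rose by 2.09 ± 0.51, Clu, a secreted chaperone, by 1.96 ± 0.47, and Timp1, an inhibitor of metalloproteinases, by 2.13 ± 0.51. Cldn1, a claudin of tight junctions, rose by 1.17 ± 0.35 (adjusted p = 0.027). Krt8, a keratin of simple epithelia, had a change of 0.88 and did not pass (adjusted p = 0.058). The count of 14 was 17 without Vehicle replicate 1, 9 without replicate 4 and 8 without replicate 5.

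**Figure D2:**
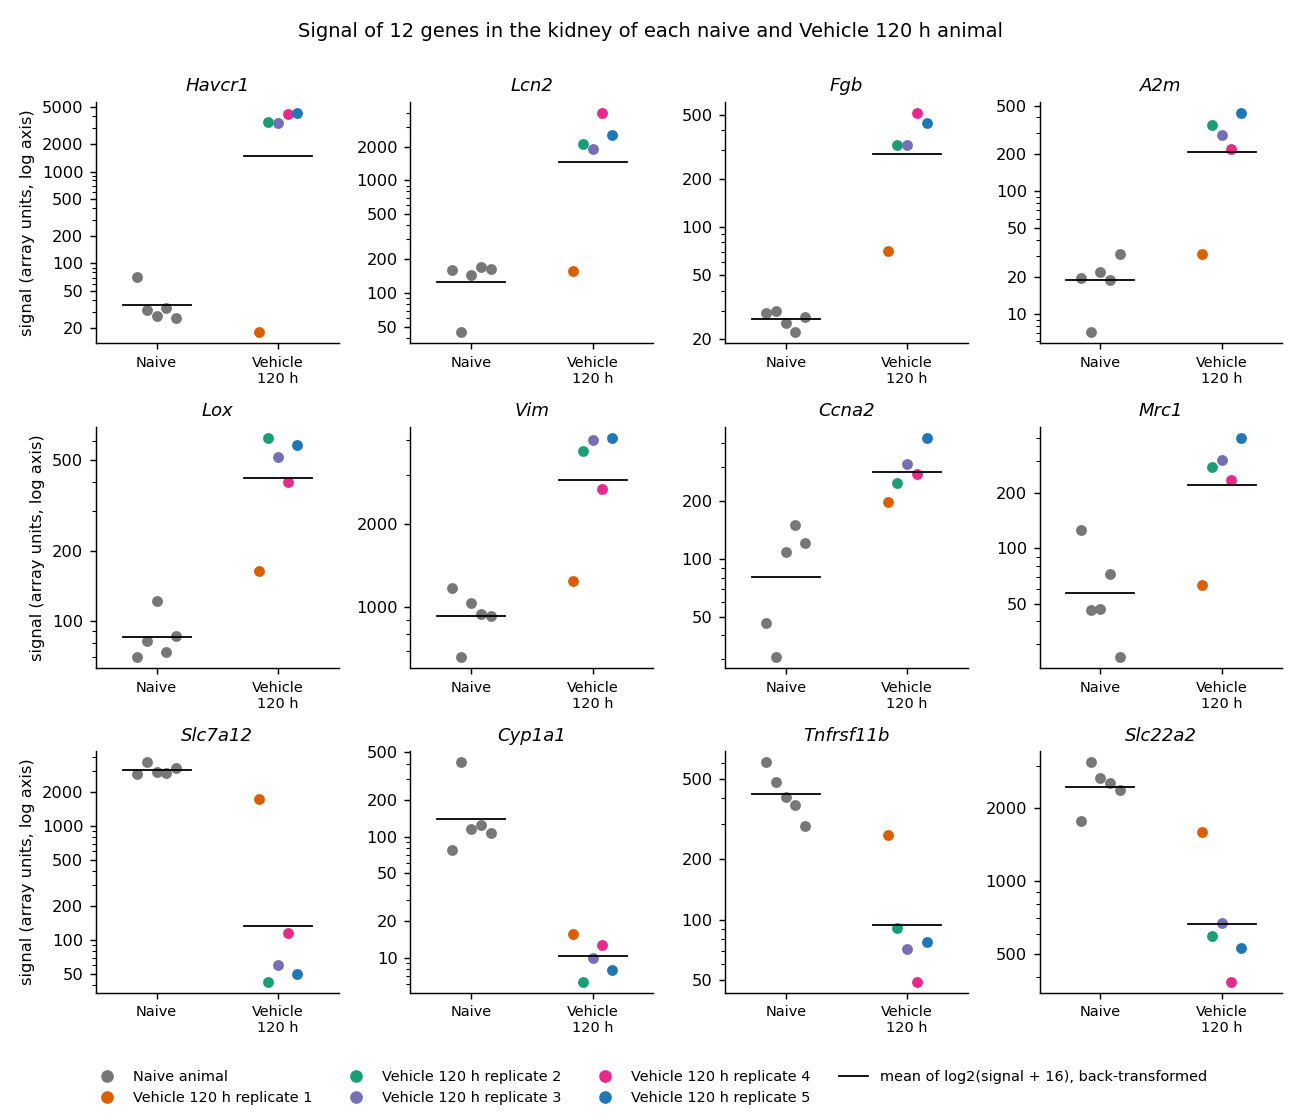
Signals of 12 genes in each animal on a log axis, with naïve animals in grey, the 5 Vehicle 120 h animals in colour, and a line at the back-transformed mean of log2(signal + 16) of each group. For both Havcr1 and Lcn2, Vehicle replicates 2 to 5 lie far above naïve while replicate 1 (17.8 and 158) does not, whereas for Fgb and Lox all 5 lie above, and for Cyp1a1 and Slc7a12 all 5 lie below.

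Transcription factors of nephron repair were a smaller group. Of 13 measured members (16 listed) 4 rose, and none of the list fell past the threshold. Myc, a driver of cell growth, had naïve signals of 80.9, 79.2, 65.7, 63.3 and 57.5 and Vehicle signals of 76.4, 277, 307, 569.9 and 346. Its log2 change was 1.74 ± 0.43 (adjusted p = 0.011), with replicate 1 inside the naïve range. Foxm1, which turns on genes of late cell cycle, rose in all 5 Vehicle animals above the naïve range, by 1.09 ± 0.28. Runx1 (1.44, adjusted p = 0.0496) and Klf6 (1.17, adjusted p = 0.045) passed narrowly. Only 2 members were called when any one array other than Vehicle replicate 1 was left out. Sox9, a factor of regenerating tubule cells, had a change of 0.56 and did not pass (adjusted p = 0.19).

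Of the 3 chains of fibrinogen, made mainly in the liver but also by injured tubule cells, 2 rose in the kidney. Fgb, the beta chain, had naïve signals of 29.2, 29.6, 25.2, 22.0 and 27.5. Its Vehicle signals were 70.3, 325, 323, 512 and 445, so that even replicate 1 was above every naïve animal. The log2 change was 2.82 ± 0.54 (adjusted p = 0.0022). Fga, the alpha chain, rose by 1.32 ± 0.37 (adjusted p = 0.019), with replicate 1 (107) below all naïve animals. It was not called without any one of Vehicle replicates 3, 4 and 5. Fgg, the gamma chain, had low signals of 7.8, 9.2, 16.3, 6.9 and 10.3 in naïve and 4.3, 25.5, 39.4, 43.6 and 50.9 in Vehicle kidneys, and its change of 0.80 did not pass (adjusted p = 0.055).

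A2m, a broad protease inhibitor that is a major acute phase protein of the rat, went from 19.8, 7.1, 21.9, 18.9 and 31.0 to 31.1, 346, 288, 222 and 434. The groups did not overlap, though replicate 1 exceeded the highest naïve animal by little, and the log2 change was 2.68 ± 0.41 (adjusted p = 3.2e-04). F5, coagulation factor V, fell by 1.04 ± 0.33 (adjusted p = 0.033). In all, 3 of 16 measured genes of fibrinogen and coagulation (17 listed) rose and 1 fell, with a median of 0.27. There were 5 rises without Vehicle replicate 1, and 2 without any one of Vehicle replicates 3, 4 and 5. F5 was not called without any one of Vehicle replicates 2 to 5 or naïve replicates 1, 3, 4 and 5.

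Because the acute phase rise of fibrinogen in liver runs through interleukin-6 and STAT3, the promoters of Fgb and Fgg, which lie near each other, are shown, from 250 bases before to 50 bases after the start site, as RefSeq places it on the rat build GRCr8. Fgb lies at chr2:170700826-170701125 on the minus strand and Fgg at chr2:170652833-170653132 on the plus strand. Capitals mark the interleukin-6 response core CTGGGAA, searched on both strands.

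Fgb: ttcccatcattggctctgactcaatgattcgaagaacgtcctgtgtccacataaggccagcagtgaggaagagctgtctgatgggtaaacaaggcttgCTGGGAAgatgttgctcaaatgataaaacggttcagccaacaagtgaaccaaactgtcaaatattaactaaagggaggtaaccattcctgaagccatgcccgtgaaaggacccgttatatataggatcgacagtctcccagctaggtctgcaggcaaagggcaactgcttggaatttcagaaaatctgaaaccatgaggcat
Fgg: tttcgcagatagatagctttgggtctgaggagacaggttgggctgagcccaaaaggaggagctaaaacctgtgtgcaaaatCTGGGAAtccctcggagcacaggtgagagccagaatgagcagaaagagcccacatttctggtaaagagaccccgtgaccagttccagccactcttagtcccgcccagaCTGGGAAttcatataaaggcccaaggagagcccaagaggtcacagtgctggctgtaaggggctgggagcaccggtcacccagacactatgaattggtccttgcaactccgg

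The core stood once in Fgb, 152 bases before the start, and 2 times in Fgg, 169 and 61 bases before it. It was found in 3001 of all 27457 promoters of this length (10.9%), in 4 of 12 matched promoters of the fibrinogen and coagulation genes (33.3%) and in 1 of 15 of the acute phase and interleukin-6 genes (6.7%). These matches describe letters in a window, and no binding was measured.

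In a list of acute phase and interleukin-6 family signaling 4 of 18 measured members (20 listed) rose, with none lower and a median of 0.45. The 4 were Il24, Socs3, Osmr and Lif. Il24, a cytokine of the interleukin-10 family, had naïve signals of 10.9, 12.1, 8.7, 4.9 and 4.5 and Vehicle signals of 12.2, 184, 158, 60.1 and 221. Replicate 1 stood just above the naïve maximum and the other 4 were well above, with a log2 change of 2.22 ± 0.51 (adjusted p = 0.0076). Socs3, the feedback inhibitor of JAK-STAT signaling, had naïve signals of 39.2, 48.1, 47.9, 40.9 and 47.8 and Vehicle signals of 56.7, 229.6, 223, 306 and 237, with no overlap. It rose by 1.75 ± 0.40 (adjusted p = 0.0067). Osmr, the oncostatin M receptor, rose by 1.50 ± 0.34 and Lif, a ligand of the family, by 1.26 ± 0.41 (adjusted p = 0.039). The call of Lif was lost after quantile normalization, by the unmoderated fit, which shares no estimate of the spread between genes, with adjustment over all probe sets, and when any one array other than Vehicle replicate 1 was left out. Il6 itself stayed near the bottom of the scale, at 12.8, 10.4, 8.2, 18.5 and 13.8 in Vehicle against 7.3, 4.2, 7.5, 6.6 and 3.8 in naïve kidneys, and did not pass (adjusted p = 0.43).

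Genes of cell division rose together, and for them replicate 1 was also raised. Of 29 measured mitosis genes (30 listed) 16 rose and none fell, with a median of 1.03, and for 18 all 5 Vehicle animals were above the naïve range, as in 5.04% of all probe sets tested. Ccna2, cyclin A2, had naïve signals of 46.2, 30.9, 109, 150.0 and 122 and Vehicle signals of 198, 247, 311, 276 and 427. The lowest Vehicle animal was above the highest naïve one, with a log2 change of 1.63 ± 0.43 (adjusted p = 0.014). Cdk1, the kinase of mitotic entry, was 39.2, 27.9, 99.5, 101 and 119 in naïve and 147, 214, 242, 203 and 289.7 in Vehicle kidneys, a change of 1.44 ± 0.42 (adjusted p = 0.023).

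Mki67, the proliferation antigen Ki-67, was 81.7, 106, 211, 205 and 213 in naïve and 315, 467, 518, 322 and 619 in Vehicle kidneys, with a change of 1.41 ± 0.38 (adjusted p = 0.017). Plk1, a mitotic kinase, was 31.1, 36.5, 78.4, 74.0 and 91.4 in naïve and 97.3, 224, 233, 97.6 and 296 in Vehicle kidneys, a change of 1.35 ± 0.46 (adjusted p = 0.047), a call lost with an offset of 1, after quantile normalization, by the unmoderated fit and without any one array other than Vehicle replicates 1 and 4. In these genes naïve replicates 1 and 2 were the lowest of all, and Vehicle replicate 1 was the lowest injured animal. Mybl2, a factor that activates genes of mitosis, rose by 1.31 ± 0.39 (adjusted p = 0.025). The number called depended on single arrays. It was 19 without Vehicle replicate 1. It was 7 when Vehicle replicate 2 was left out, 6 when replicate 3 was and 2 when replicate 5 was, and it fell to 4 and 6 when naïve replicates 1 and 2 were. After quantile normalization 10 were called.

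The promoters of Cdk1 and Plk1 are shown with the elements that are known from cell cycle genes of mammals, the cell cycle homology region TTTGAA and the CCAAT box CCAAT, both in capitals and searched on both strands. Cdk1 lies at chr20:19265043-19265342 and Plk1 at chr1:186147408-186147707, both on the plus strand.

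Cdk1: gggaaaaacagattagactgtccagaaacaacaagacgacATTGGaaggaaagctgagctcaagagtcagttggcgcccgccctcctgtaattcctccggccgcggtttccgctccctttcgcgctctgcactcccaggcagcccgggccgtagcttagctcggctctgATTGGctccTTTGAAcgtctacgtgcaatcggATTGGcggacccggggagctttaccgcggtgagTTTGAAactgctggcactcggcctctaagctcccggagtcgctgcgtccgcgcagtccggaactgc
Plk1: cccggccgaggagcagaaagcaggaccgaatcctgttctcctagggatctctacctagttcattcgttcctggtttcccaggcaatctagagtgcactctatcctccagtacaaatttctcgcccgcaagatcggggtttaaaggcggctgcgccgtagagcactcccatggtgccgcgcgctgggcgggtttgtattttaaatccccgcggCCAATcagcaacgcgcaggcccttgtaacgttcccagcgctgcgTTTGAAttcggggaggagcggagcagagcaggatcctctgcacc

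TTTGAA stood 72 and 16 bases before the start of Cdk1 and 6 bases after that of Plk1. CCAAT stood on the reverse strand (as ATTGG) 210, 81 and 49 bases before the start of Cdk1 and on the forward strand 38 bases before that of Plk1. TTTGAA was present in 15 of 23 matched promoters of the mitosis list (65.2%), in 9 of 12 of those called (75.0%), in 2 of 19 of the DNA replication list (10.5%) and in 4962 of all 27457 promoters (18.1%). CCAAT was present in 16 of 23 (69.6%), 10 of 12 (83.3%), 12 of 19 (63.2%) and 10363 of all (37.7%). Nothing about a factor follows from these letters.

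DNA replication genes were also higher, but few passed. All 23 measured members (26 listed) had positive changes, with a median of 0.83. For 14 all 5 Vehicle animals were above the naïve range, as in 5.04% of all probe sets tested. Of the members 3 passed, where 1.83% of all probe sets tested rose. They were Rrm2, a subunit of ribonucleotide reductase (1.49 ± 0.41), and Mcm6 (1.41 ± 0.43) and Mcm3 (1.27 ± 0.39) of the replicative helicase. Mcm6 signals were 72.7, 55.3, 99.5, 90.7 and 101 in naïve and 122, 196, 226, 541 and 293 in Vehicle kidneys, with the highest value in replicate 4. Mcm2 (0.85, adjusted p = 0.041) stayed below 2-fold, as did Mcm4 (0.92, adjusted p = 0.054). Of this list 9 rose without Vehicle replicate 1, 1 without Vehicle replicate 4 or naïve replicate 2, and none without Vehicle replicate 5. Of 15 measured genes of cell cycle arrest and p53 (17 listed) limma called 0, with 3 higher at an unadjusted p under 0.05 and 0 by the unmoderated fit, and 1 was called without Vehicle replicate 1 or naïve replicate 1. Cdkn1a, the arrest factor p21, had a change of 0.84 (adjusted p = 0.11).

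Collagen genes were among those that rose in Vehicle kidneys. Of 20 measured collagen genes 9 rose and none fell, with a median of 0.98. Lox, lysyl oxidase, which crosslinks collagen and elastin, had naïve signals of 69.7, 81.4, 122, 73.3 and 85.8 and Vehicle signals of 164, 622, 512, 398 and 579. All 5 Vehicle animals were above naïve, with a log2 change of 2.10 ± 0.30 (adjusted p = 2.0e-04). Cthrc1, a secreted protein of remodeling tissue, had naïve signals of 19.5, 4.6, 10.8, 12.4 and 3.2 and Vehicle signals of 18.8, 189, 184, 34.7 and 211. Replicate 1 lay within naïve and replicate 4 not far above, and the change was 2.12 ± 0.40 (adjusted p = 0.0019).

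Among the collagens, the short-chain Col8a1 rose by 2.07 ± 0.41, Col4a1 of basement membranes by 1.27 ± 0.25, and Col1a1 of fibrils by 1.16 ± 0.37 (adjusted p = 0.035). Col1a1 was not called with 2 groups only or by the unmoderated fit. Nor was Col1a1 called without any one of Vehicle replicates 2, 3 and 5 or naïve replicates 2 to 5. The 3 chains of microfibrillar collagen VI rose to a like extent, Col6a1 by 1.20 ± 0.26, Col6a2 by 1.08 ± 0.28 and Col6a3 by 1.02 ± 0.29. Col6a1 signals were 319.8, 252, 274, 263 and 262 in naïve and 269, 932, 705, 769.7 and 839.8 in Vehicle kidneys, where replicate 1 lay inside the naïve range. Col3a1 had a change of 0.87 and did not pass (adjusted p = 0.061). The count of 9 became 16 higher and 2 lower without Vehicle replicate 1, and 3 higher when Vehicle replicate 2 was left out, 5 when replicate 3 was and 4 when replicate 5 was.

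Of 26 other matrix proteins and crosslinking enzymes measured (28 listed) 5 rose, with a median of 0.54: Lox, Cthrc1, Eln or elastin (1.31 ± 0.30), Mgp, an inhibitor of calcification (1.17 ± 0.25), and Fn1 or fibronectin (1.11 ± 0.30). Of 19 proteases and inhibitors (20 listed) 4 rose, namely Timp1, Adamts1 (1.98 ± 0.51) and Adamts4 (1.25 ± 0.31), which cleave proteoglycans, and the metalloprotease Adam12 (1.17, adjusted p = 0.043). Adam12 was not called with an offset of 1, after quantile normalization, by the unmoderated fit, with adjustment over all probe sets, or without any one array other than Vehicle replicate 1.

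TGF-beta signaling, a main driver of fibroblast activation, rose in 4 of 17 measured members (20 listed), with a median of only 0.11. These were Ltbp2, a latent TGF-beta binding protein family member (1.41 ± 0.30), the ligand Tgfb2 (1.26 ± 0.33), Inhba, the subunit of activin A (1.23 ± 0.35), and Tagln, an actin-binding protein of contractile cells (1.21 ± 0.30). Tgfb1 had a change of 0.86 (adjusted p = 0.046), under 2-fold. Without Vehicle replicate 1, 2 members of the list also fell, and without Vehicle replicate 5 it held 3 rises and 1 fall.

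Fibroblast and pericyte markers were less uniform. Of 18 measured (20 listed) 2 rose, Col1a1 and Tagln, which are also counted above, and the median was 0.39. The mean of the list was 0.90, 0.61 and 0.72 above naïve in Vehicle replicates 2, 3 and 5, but -0.10 and -0.16 in replicates 1 and 4, and naïve replicate 1 stood at 0.67. Pdgfra, the receptor that marks kidney fibroblasts, had a change of 0.75 (adjusted p = 0.024), higher in all 5 Vehicle animals but under 2-fold. Without Vehicle replicate 4, 5 markers were called, 4 without Vehicle replicate 1 or naïve replicate 1, and 1 without any other array. The part of fibroblast number in the collagen values was not tested.

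Macrophage genes were high in 3 of the 5 injured animals. Of 29 measured macrophage and dendritic cell markers (31 listed) 7 rose and none fell, with a median of 0.66. The mean of the list was 0.95, 1.05 and 1.37 above naïve in Vehicle replicates 2, 3 and 5, and 0.02 and 0.03 in replicates 1 and 4, within the naïve range of -0.10 to 0.13. Mrc1, the mannose receptor, had naïve signals of 127, 46.0, 46.9, 72.9 and 25.5 and Vehicle signals of 62.8, 278, 306, 237 and 403. Replicate 1 lay inside the naïve range and replicate 4 was the next lowest, with a change of 1.72 ± 0.42 (adjusted p = 0.010).

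Trem2, a lipid-sensing receptor, was 23.6, 7.3, 26.1, 14.5 and 26.2 in naïve and 24.3, 135, 179.9, 14.4 and 155 in Vehicle kidneys, a change of 1.39 ± 0.42 (adjusted p = 0.027). Here replicates 1 and 4 were both within naïve. Gpnmb, a glycoprotein of lipid-laden and phagocytic macrophages that other cells also make, rose by 2.19 ± 0.60, Cd14, the co-receptor for endotoxin, by 1.30 ± 0.36, and the C-type lectin Clec4a2 by 1.26 ± 0.26. Clec4a2 was higher in all 5 Vehicle animals, at 24.3, 55.7, 43.7, 61.6 and 79.6 against 17.2, 7.6, 10.6, 10.0 and 13.3. Cd68, a lysosomal protein of macrophages, had a change of 0.84 and did not pass (adjusted p = 0.11). The count of 7 was 10 without Vehicle replicate 1, 4 without replicate 3 and 2 without replicate 5.

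Few other immune genes were called, where 1.83% of all probe sets tested rose, and 1 call in a short list is not a result about that list. Of 15 measured neutrophil markers (18 listed) only Lcn2 was called, which tubule cells also make, and of 19 T, NK and B cell markers (22 listed) limma called 0, with 1 higher at an unadjusted p under 0.05 and 0 by the unmoderated fit. Of 21 chemokines and receptors (23 listed) 2 rose, Ccl6 (1.35 ± 0.36), a chemokine of rodents, and Ccl21 (1.13 ± 0.33), a chemokine of lymphoid tissue, neither of them called without Vehicle replicate 2 or 3, and 1 member without Vehicle replicate 5 or naïve replicates 3, 4 or 5. Without Vehicle replicate 1, 1 member fell. Of 13 complement genes (20 listed) 1 rose, Cfi, the protease that inactivates C3b (1.41 ± 0.33, adjusted p = 0.0080), with 3 higher without Vehicle replicate 1. Of 24 genes of antigen presentation and interferon (25 listed) 1 rose, Psmb8 of the immunoproteasome (1.17, adjusted p = 0.031), which was lost without any one of Vehicle replicates 2 to 5 or naïve replicates 2 and 4, and 3 members rose without Vehicle replicate 1 and 2 without naïve replicate 3.

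Some transporters of the proximal tubule fell. Of 13 measured organic anion and cation transporters (18 listed) 4 fell, where 1.51% of all probe sets tested did, and none rose, with a median of -0.72. Slc22a2, the organic cation transporter OCT2 of the basolateral membrane, had naïve signals of 1779, 3106, 2667, 2539 and 2377 and Vehicle signals of 1603, 592, 670.2, 382 and 526. All 5 Vehicle animals were below naïve, replicate 1 just so, with a log2 change of -1.86 ± 0.49 (adjusted p = 0.015). The organic anion transporters Slco4c1 (-2.20 ± 0.63), Slco1a6 (-2.44 ± 0.75) and Slc22a7 (-1.02 ± 0.33) fell as well. Slc22a6, the main uptake transporter of organic anions, had a change of -0.79 (adjusted p = 0.079). Replicate 4 had the lowest mean of the list at -1.57, replicates 2, 3 and 5 lay between -1.01 and -0.81, and replicate 1 was at -0.08. The count was 1 without any one of Vehicle replicates 2, 4 and 5, and 2 without Vehicle replicate 3 or any one of naïve replicates 2 to 5.

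The largest fall of any named gene was that of Slc7a12, an amino acid transporter. Its naïve signals were 2877, 3605, 2984, 2895 and 3247 and its Vehicle signals 1735, 43.0, 60.4, 115 and 50.5. Replicate 1 was below naïve but far above the other 4 Vehicle animals, and the change was -4.41 ± 0.94 (adjusted p = 0.0044), or -5.30 without replicate 1. The list of amino acid transporters did not hold Slc7a12, so that its fall is not in the counts that follow. Of the 15 measured members (16 listed) 3 fell, Slc7a13 (-2.05, adjusted p = 0.034), Slc6a13, which carries GABA (-1.31 ± 0.37), and Slc16a4. Slc16a4 (-1.36, adjusted p = 0.037) is of the monocarboxylate transporter family and was counted as listed. The median of that list was -0.61, and 0 were called without Vehicle replicate 3 or 5 and 1 without Vehicle replicates 2 or 4 or naïve replicates 2 to 5.

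Carriers for sugars, phosphate and acid moved both ways. Of 14 measured (16 listed), 3 fell: Slc2a4, the insulin-responsive glucose transporter GLUT4 (-1.76 ± 0.48), Slc2a5, a fructose transporter (-1.46, adjusted p = 0.035), and Slc9a3, the sodium-proton exchanger NHE3 (-1.38, adjusted p = 0.035). Slc34a2, a sodium-phosphate cotransporter better known from lung and gut, rose by 1.99 ± 0.54 (adjusted p = 0.017), from 293, 413, 422, 249 and 288 to 250.1, 2152, 2364, 1512 and 2168. Replicate 1 was within the naïve range and the other 4 were above all of them. The glucose transporter Slc2a2, chosen after its values were seen, also rose (1.06 ± 0.27), while Slc34a1, the main phosphate transporter of the proximal tubule, had a change of -0.59 (adjusted p = 0.13). Without Vehicle replicate 5 none of the list was called. There was 1 rise without Vehicle replicates 2 or 3 or naïve replicate 1, and 1 fall without any one of Vehicle replicates 2, 3 and 4 and naïve replicates 2, 3 and 4.

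In a list of endocytic receptors and brush border enzymes 2 of 13 measured genes fell (16 listed, median -0.46), or 5 without Vehicle replicate 1. Alpl, alkaline phosphatase of the brush border, fell by 1.59 ± 0.37 (adjusted p = 0.0081). The other, Gp2, fell by 1.60 ± 0.45. It is a glycoprotein close to uromodulin, counted as listed, and is not a brush border enzyme. Lrp2, the endocytic receptor megalin, was lower in all 5 Vehicle animals, with a change of -0.46 that did not pass (adjusted p = 0.13). Of the 19 measured markers of the proximal tubule as a cell type (20 listed) 18 had negative changes with a median of -0.59, but only Slc7a13 and Slc22a7 passed, 4 without Vehicle replicate 1 and none without any one of Vehicle replicates 2 to 5 or naïve replicates 2 to 5.

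Some genes of the thick ascending limb and distal tubule fell as well. Of 13 measured (14 listed) 4 fell, where 1.51% of all probe sets tested did, with a median of -0.79. Umod was 3925, 2101, 2396, 1426 and 1714 in Vehicle kidneys, all below the naïve range given above, a change of -1.27 ± 0.40 (adjusted p = 0.034). Ppp1r1a, an inhibitor of protein phosphatase 1, had naïve signals of 1858, 1921, 2437, 2123 and 1973 and Vehicle signals of 1659, 411, 446, 405 and 300.2, a change of -1.95 ± 0.61 (adjusted p = 0.031). Klk1, kallikrein, fell by 1.40 ± 0.44 and Tmem72, a membrane protein of the kidney, fell by 1.37 (adjusted p = 0.046). The call of Tmem72 was lost with an offset of 1, by the unmoderated fit and without any one array other than Vehicle replicate 1. Another probe set of Tmem72, dimmer on average, had a change of -0.50 and did not pass (limma, adjusted p = 0.61). Klk1 belongs to a family of near-identical genes in the rat, so that its signal may hold that of others.

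Egf, the growth factor made by the distal tubule, was 2297, 3182, 3529, 3227 and 3466 in naïve and 2759.9, 747, 606, 477 and 443 in Vehicle kidneys. Its change of -1.99 did not pass (adjusted p = 0.066), with replicate 1 inside the naïve range and the other 4 far below. Slc12a1, the sodium-potassium-chloride cotransporter, had a change of -0.98 (adjusted p = 0.073). Of this list 6 were called without Vehicle replicate 1, none without Vehicle replicates 2, 3 or 5 or naïve replicates 4 or 5, and 1 without Vehicle replicate 4 or naïve replicates 2 or 3. In the list of distal salt and water handling 2 of 15 measured genes (20 listed) fell, Umod and Ppp1r1b, another phosphatase inhibitor (-1.33 ± 0.37), with 4 without Vehicle replicate 1, none without Vehicle replicate 4 and 1 without each of the other Vehicle replicates and naïve replicates 2 to 5. Of 14 collecting duct (15 listed), 8 podocyte (10 listed) and 17 endothelial markers (20 listed) limma called 0 in each list, with 0, 3 and 3 higher and 4, 1 and 2 lower at an unadjusted p under 0.05, and 0 in each by the unmoderated fit. Of the collecting duct markers 1 fell without Vehicle replicate 1. Of the podocyte markers 1 rose without Vehicle replicates 1 or 4 or naïve replicate 3, and of the endothelial markers 1 rose without Vehicle replicate 1 or naïve replicates 3 or 5.

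**Figure D3:**
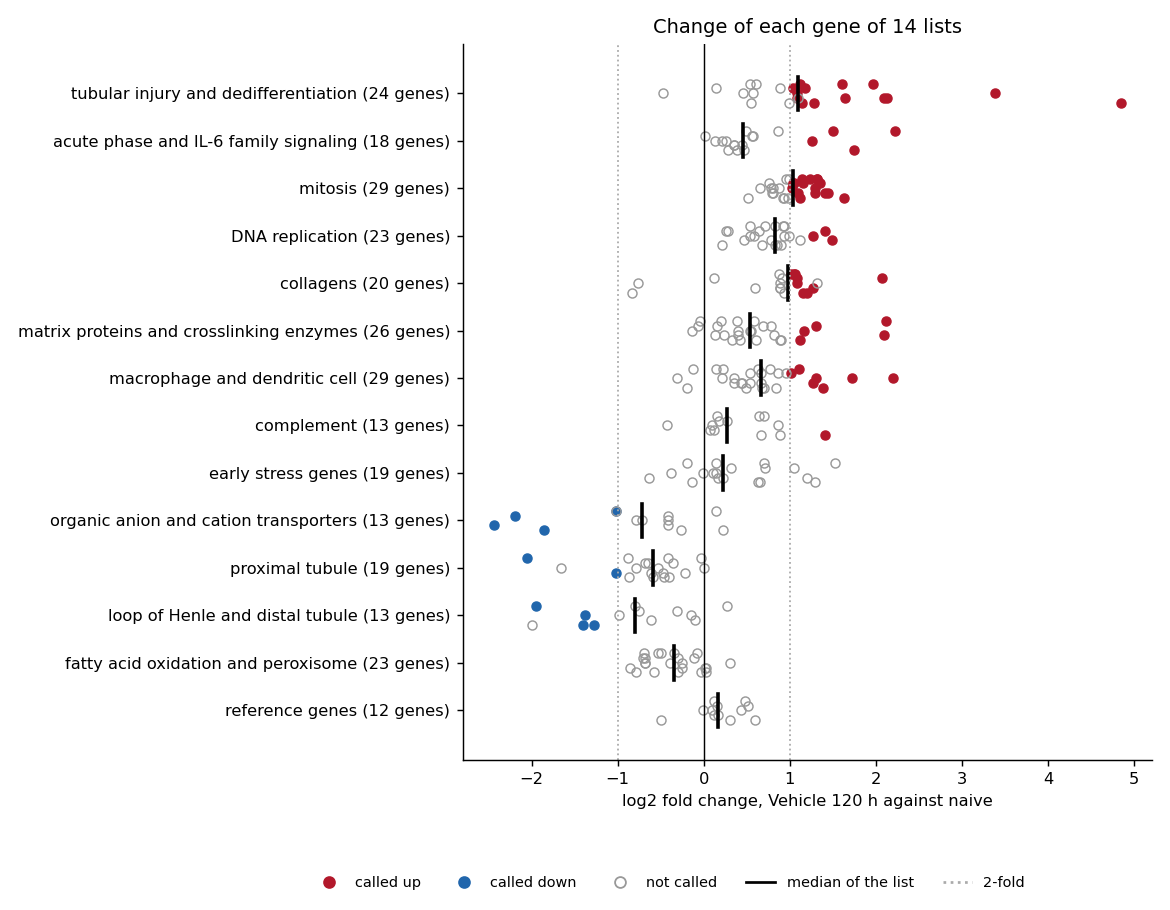
Log2 change of every measured gene of 14 lists in Vehicle 120 h against naïve kidneys, with filled points for genes called (2-fold and adjusted p under 0.05), a black line at the median of each list and dotted lines at 2-fold. All mitosis and DNA replication genes lie above 0 (medians 1.03 and 0.83), and most transporter and distal tubule genes lie below 0 (medians -0.72 and -0.79).

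Hormone and mineral genes of the kidney changed in both directions. Agt, angiotensinogen, had naïve signals of 225, 322, 224, 295 and 236 and Vehicle signals of 217, 97.9, 78.8, 29.4 and 68.0, all below naïve, a change of -1.46 ± 0.42 (adjusted p = 0.022). Ptgs2, the inducible cyclooxygenase that sits in the macula densa and medullary interstitium, went from 298, 126, 155, 156 and 188 to 99.0, 53.6, 54.3, 86.7 and 45.4, a change of -1.25 ± 0.34 (adjusted p = 0.018). With Klk1 these were the 3 of 13 measured genes of the angiotensin, kallikrein and endothelin list (17 listed) that fell, and none was called without Vehicle replicate 5.

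Tnfrsf11b, osteoprotegerin, the decoy receptor for the bone cytokine RANKL, was 605, 485, 406, 370.4 and 293 in naïve and 263, 90.9, 71.6, 49.1 and 77.5 in Vehicle kidneys. All 5 were below naïve, with a change of -1.99 ± 0.43 (adjusted p = 0.0046). Tnfsf11, which encodes that ligand, had a change of 0.20 and was not among the probe sets tested. Trpv5, the calcium entry channel of the distal tubule, rose from 143, 231, 193, 257 and 273 to 308, 749, 457, 608 and 791, a change of 1.30 ± 0.37 (adjusted p = 0.020). Cyp24a1, which degrades active vitamin D, had naïve signals of 272, 371, 359.6, 405 and 564 and Vehicle signals of 537, 3322, 3070.2, 431 and 3910.0. It was high in replicates 2, 3 and 5 and in the naïve range in replicates 1 and 4, and its change was 1.99 ± 0.57 (adjusted p = 0.021). Of 16 measured genes of this list (17 listed) 2 rose and 1 fell. None rose without Vehicle replicates 2 or 5, 1 rose without replicate 3, and 3 fell without replicate 1.

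Genes of drug and nutrient metabolism were in 6 lists, with 16, 22, 23, 16, 17 and 11 measured. Over these lists 4 fell and 1 rose, where 1.51% of all probe sets tested fell and 1.83% rose. Cyp1a1, the classic target of the aryl hydrocarbon receptor, had naïve signals of 77.1, 410.2, 115, 125 and 107, with the highest in replicate 2, and Vehicle signals of 15.8, 6.3, 9.9, 12.7 and 7.9. The groups did not overlap, and the change was -2.56 ± 0.37 (adjusted p = 2.0e-04). Cyp2c11, a steroid hydroxylase typical of male rats, went from 328, 317, 331, 531 and 167 to 137, 7.7, 12.3, 34.2 and 10.6, a change of -2.96 ± 0.64 (adjusted p = 0.0048), and since its family is close in sequence the signal may hold related genes. Of 16 measured P450 genes (20 listed), 2 fell and 1, Cyp24a1, rose. None rose without Vehicle replicates 2, 3 or 5, 2 rose without replicate 4, and without replicate 1 there were 2 rises and 3 falls.

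Of 22 measured genes of amino acid and one-carbon metabolism (24 listed) 21 had negative changes and 2 passed. Acadsb, a dehydrogenase of branched-chain acyl-CoA, went from 1249, 1540.5, 1441, 1505 and 1351 to 922, 542, 572, 339.9 and 479, a change of -1.36 ± 0.28 (adjusted p = 0.0036), and Odc1, the first enzyme of polyamine synthesis, fell by 1.19 ± 0.25. The median was -0.60, and 4 fell without Vehicle replicate 1. Of 23 genes of fatty acid oxidation and the peroxisome (28 listed) 19 had negative changes with a median of -0.35, and limma called 0, the unmoderated fit also 0, while 11 were lower at an unadjusted p under 0.05. Of 16 phase II conjugation enzymes (21 listed) 13 had negative changes with a median of -0.32, of 17 genes of gluconeogenesis and glycolysis (20 listed) 9 had negative and 8 positive changes with a median of -0.01, and of 11 genes of cholesterol synthesis (18 listed) 6 had negative and 5 positive changes with a median of -0.08. In these 3 lists limma called 0 and the unmoderated fit 0, while at an unadjusted p under 0.05 there were 3 lower phase II enzymes, 4 lower and 2 higher genes of gluconeogenesis and glycolysis, and 3 lower and 1 higher of cholesterol synthesis. Without Vehicle replicate 1, 3 phase II enzymes and 1 gene of gluconeogenesis and glycolysis fell. The nuclear receptor Ppara (-0.78, adjusted p = 0.056) and its coactivator Ppargc1a (-0.69, adjusted p = 0.048) were lower in all 5 Vehicle animals, each by less than 2-fold.

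Among targets of NRF2, the factor of the oxidant response, Gpx2, a glutathione peroxidase, rose by 1.57 ± 0.40 and Osgin1 fell by 1.67 ± 0.48, 1 each of 12 measured (13 listed), or 4 and 2 without Vehicle replicate 1. Osgin1 was not called without any one of Vehicle replicates 3, 4 and 5 or naïve replicate 2. Among growth factors and receptors, Igf1 fell by 1.32 ± 0.37 and Fgf10, a ligand made by stromal cells, rose by 1.08 ± 0.29, 1 each of 24 measured (25 listed). There were 3 rises and 2 falls without Vehicle replicate 1. Fgf10 was lost with the filter on dim probe sets, after quantile normalization, and without Vehicle replicates 2 or 5 or naïve replicate 2, and Igf1 without Vehicle replicate 4 or naïve replicate 3.

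Some of the largest changes fell outside these groups. Niban1, a stress-responsive protein, had naïve signals of 70.7, 38.9, 82.8, 57.7 and 71.0 and Vehicle signals of 79.1, 562, 528, 608 and 590.1, a change of 2.37 ± 0.58 (adjusted p = 0.010). Ptk6, an epithelial tyrosine kinase, went from 81.3, 75.4, 64.8, 63.4 and 76.1 to 66.7, 574, 619.6, 642 and 639, a change of 2.26 ± 0.55 (adjusted p = 0.0092). In both, replicate 1 lay in the naïve range and replicates 2 to 5 were close to each other. Adra1d, an alpha-1 adrenergic receptor, rose by 2.23 ± 0.57, and the glycosyltransferase B4galnt4 by 2.19 ± 0.46, in B4galnt4 with all 5 Vehicle animals above naïve.

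Large falls were seen in Tff3, a trefoil peptide of epithelia, from 2764, 4190.4, 2899, 3408 and 3107 to 1399, 425, 406, 461 and 322. All 5 Vehicle animals were below naïve, with a change of -2.61 ± 0.50 (adjusted p = 0.0022). The changes were -2.94 ± 0.75 for Rgn, the calcium-binding protein regucalcin, -3.72 ± 0.91 for Cacng5, an auxiliary subunit of the calcium channel family, -2.24 ± 0.48 for Gcgr, the glucagon receptor, and -2.35 ± 0.73 for Hnmt, which inactivates histamine. They were -2.62 ± 0.65 for Gucy1b2, a subunit of soluble guanylate cyclase, -2.35 ± 0.46 for Anxa13, an epithelial annexin, and -2.60 ± 0.57 for Spata22, a gene of meiosis. The other 3 of the 15 largest falls were Dhrs7l1 (-2.78), Slc22a24 (-2.31) and Nat8f1 (-2.25). The call of Hnmt was lost without any one of Vehicle replicates 2, 4 and 5 or naïve replicates 2 to 4. Nat8f1 was lost without any one of Vehicle replicates 2 to 5 or naïve replicates 3 and 4. Dhrs7l1 was lost without Vehicle replicates 2, 4 or 5, and Slc22a24 without Vehicle replicates 4 or 5 or naïve replicate 2.

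Cell types that do not belong to the nephron were checked through their markers. Of 10 adipocyte genes 1 was called, Cidec, a lipid droplet protein that fell by 1.41 ± 0.37. Naïve replicate 1 had an adipocyte mean of 1.41 above the naïve mean, against -0.48 to -0.15 in the other naïve and -0.56 to -0.30 in the Vehicle animals. Of 8 red blood cell genes (10 listed) limma called 0 against naïve, with 2 lower at an unadjusted p under 0.05 and 0 by the unmoderated fit, with 1 fall without Vehicle replicate 1, and naïve replicate 2 had a mean of -0.85 against -0.09 to 0.36 in the other naïve animals. Their part in the results was not tested. Of 12 reference genes (14 listed) limma called 0, with 5 higher and 1 lower at an unadjusted p under 0.05, 0 by the unmoderated fit and a median of 0.16.

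The kidneys at 120 h were also set directly against those of 4 saline-treated animals killed at 24 h. Of 14607 probe sets 33 (0.226%) were called, 9 higher and 24 lower at 120 h. The count and its split depended on single animals and on the fit. There were 187 higher and 90 lower without Vehicle 24 h replicate 1, 20 higher and 21 lower without Vehicle 120 h replicate 1, and 0 higher and 14 lower with only these 2 groups in the fit, so that no direction prevailed under all settings. The count was 41, 2, 2, 401 and 9 without Vehicle 120 h replicates 1 to 5, and 277, 4, 9 and 11 without Vehicle 24 h replicates 1 to 4. Vehicle 24 h replicate 1 stood apart from its group, with a mean of -0.01 over the proximal tubule markers against -1.85 to -1.29 in the other 3 animals and an early stress mean of 2.67 against 0.92 to 1.26. Its weight in the contrast was not tested beyond leaving it out.

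The genes lower at 120 h than at 24 h included stress and red blood cell genes. Hmox1, heme oxygenase 1, had signals of 29.9, 24.3, 16.1, 9.7 and 16.1 in naïve, 825, 297, 265 and 197 in Vehicle 24 h and 20.6, 42.1, 41.6, 140.2 and 79.4 in Vehicle 120 h animals. Every 120 h animal was below every 24 h animal, and the change from 24 h was -2.31 ± 0.40 (adjusted p = 0.0081). Against naïve the 120 h value was 1.05 higher and did not pass (adjusted p = 0.059). Zfand2a, a gene of the heat shock response, had a change from 24 h of -2.10 ± 0.48 (adjusted p = 0.032). The heat shock proteins Hspb1 (-1.72, adjusted p = 0.039) and Hsph1 (-1.59, adjusted p = 0.031) and the oxidant response gene Srxn1 (-1.59, adjusted p = 0.042) were lower too. All 3 were chosen after their values were seen. The times overlapped for Hsph1 and Srxn1, with 569 and 1198 in 120 h replicate 4 against 504 and 1055 in 24 h replicate 4. For Hspb1 120 h replicate 4 (1123) nearly reached the lowest 24 h animal (1126). Vehicle 24 h replicate 1 was the highest for Hspb1 (3639) and Hsph1 (2892). Of the 19 measured early stress genes (20 listed) 4 were lower than at 24 h. Against naïve limma called 0 of them, with 5 higher and 1 lower at an unadjusted p under 0.05 and 0 by the unmoderated fit, and 2 rose without Vehicle replicate 1.

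Hbb, beta globin, had signals of 903, 206, 1689, 1466 and 1503 in naïve, 2687, 3394, 2231 and 2429 in Vehicle 24 h and 764, 329.7, 304, 883 and 302 in Vehicle 120 h animals. The 120 h values were below all 24 h values, with a change of -2.48 ± 0.57 (adjusted p = 0.032), and overlapped naïve. Hba-a3 (-2.55), Hbb-b1 (-2.28), Alas2, which makes heme in red cell precursors (-2.16), and Ahsp, the alpha globin chaperone chosen after its values were seen (-1.95), were also lower than at 24 h. The globin genes are near-identical, so that their signals are not independent. Of the 10 lower genes named here and in the paragraph before, Hmox1 was called with each array left out in turn but not with only the 2 groups in the fit. Hmox1 was the single one called without any one of Vehicle 120 h replicates 2, 3 and 5 or Vehicle 24 h replicates 2 and 3, and by the unmoderated fit.

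Among the 9 higher than at 24 h, Tf, transferrin, had signals of 529, 913, 524, 457 and 379 in naïve, 439, 175, 184 and 181 in Vehicle 24 h and 523, 815, 826, 339 and 1285 in Vehicle 120 h animals. Its change from 24 h was 1.54 ± 0.32 (adjusted p = 0.019), with replicate 4 at 120 h below Vehicle 24 h replicate 1, and its 120 h value did not pass against naïve (0.36, adjusted p = 0.43). Col11a1, a fibrillar collagen, was 117, 116, 138, 141 and 125 in naïve, 177, 115, 107 and 102 in Vehicle 24 h and 149.7, 281, 263, 393 and 336 in Vehicle 120 h animals. It was higher at 120 h than at 24 h by 1.06 ± 0.26 (adjusted p = 0.043) and higher than naïve by 1.01 ± 0.24 (adjusted p = 0.0092). Tox, a nuclear factor of lymphocytes and other cells (1.30), the lysosomal channel Mcoln3 (1.17), the guidance protein Sema5a (1.04) and Rimbp2, a protein of synapses (1.76), were also higher than at 24 h and did not pass against naïve. None of the 6 was called with only these 2 groups in the fit or without any one of Vehicle 120 h replicates 2 and 3 and Vehicle 24 h replicate 2, and 2 were called by the unmoderated fit. Against naïve, Col11a1 was not called after quantile normalization or with array weights. That call was also lost without any one of Vehicle 120 h replicates 2, 4 and 5 or naïve replicates 1 and 2.

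**Figure D4:**
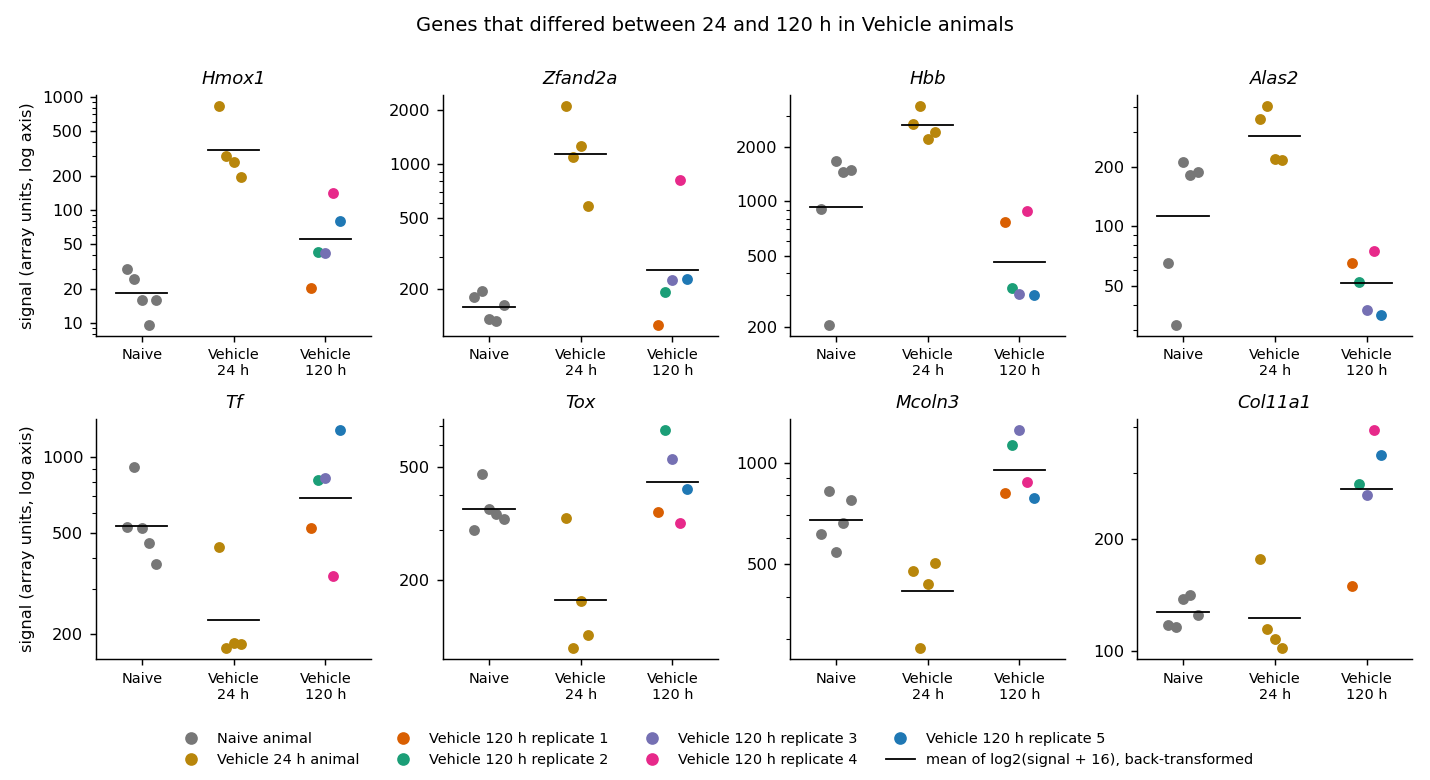
Signals of 8 genes in naïve, Vehicle 24 h and Vehicle 120 h animals on a log axis, 1 point per animal, with lines at the back-transformed group means of log2(signal + 16). Hmox1, Zfand2a, Hbb and Alas2 are lower at 120 h than at 24 h, with log2 differences of -2.31, -2.10, -2.48 and -2.16, and Tf, Tox, Mcoln3 and Col11a1 are higher, with 1.54, 1.30, 1.17 and 1.06.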

How the data were processed

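Kidney RNA of 10 animals (5 Vehicle 120 h, 5 naïve) out of 46 on Affymetrix Rat Gene 1.1 ST arrays was compared. The authors summarized the arrays by iterPLIER in Expression Console 1.1, and what was deposited is 1 linear intensity for each of 29214 probe sets, before any offset or logarithm. The study's methods mention 44 arrays with 2 excluded, and all 46 deposited arrays were used. The 50% of probe sets with the lower SD were removed, and 14607 were fitted as log2(value + 16) with limma 3.58.1 in R 4.3.3 over all 10 groups, with 36 residual and 4.44 prior degrees of freedom. Calls required 2-fold and p under 0.05 after Benjamini-Hochberg adjustment. The offset damps changes of dim probe sets. The number of arrays limits the precision. The medians of the 10 arrays ran from 65.0 to 80.2.

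Of the probe sets 18644 carried 1 symbol, 962 several and 9608 none. A gene with several probe sets (879 of 17245) was represented by the brightest on average. Named were the 15 largest rises and falls, up to 4 called and 2 uncalled members of each of 42 lists, genes the study names for 120 h, and the 6 largest rises and falls against 24 h. Members and lists were chosen with earlier results of these data known, so list counts and medians are descriptions. Some of the genes named by this rule are left out. Il19 and Adam19 were not analysed here. Probes cross-hybridise between near-identical genes, so that signals of the Cyp2c, Slco1a, Nat8, Klk1 and globin families are uncertain. Alternatives were another offset, other filters, an unmoderated fit, 2 groups only, quantile normalization, array weights, a replicate block, and leaving out each array in turn. Promoters come from RefSeq (GRCr8).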

Additional observations from a re-analysis of the deposited data

Results flagged for a closer look

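Each group of 5 animals was tested for a highest or lowest signal that stood far from the others, on the log2(signal + 16) scale (Dixon's test, limit 0.71). Of 276 sets of a named gene in a group, 44 held such an animal. The limit is one that chance passes in about 1 in 20 independent sets. These sets share the same animals and many genes were named for their change, so that the 44 cannot be set against that rate. Vehicle replicate 1 was the animal in 28 of the 44.

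It was the lowest Vehicle animal for 18 genes. Its signals were 17.8 for Havcr1, 158 for Lcn2, 263 for Cd44, 463 for Clu and 32.0 for Runx1. They were 70.3 for Fgb, 107 for Fga, 31.1 for A2m and 56.7 for Socs3. For the collagen VI chains they were 269 (Col6a1), 194 (Col6a2) and 599.7 (Col6a3), and for the proteases 271 (Adamts1) and 29.9 (Adamts4). They were 108 for Cd14, 79.1 for Niban1, 66.7 for Ptk6 and 250.1 for Slc34a2. It was the highest Vehicle animal for 10 genes that were lower in the other 4, with 1735 for Slc7a12, 917 for Cacng5, 2104 for Dhrs7l1, 380.2 for Gucy1b2 and 1399 for Tff3. The others were 384 for Spata22, 187 for Gcgr, 1659 for Ppp1r1a, 2759.9 for Egf and 886 for Osgin1.

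Vehicle replicate 4 was lowest for Lrp2 (1020.1) and Rimbp2 (129).

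Among naïve animals, replicate 1 was highest for Havcr1 (72.0) and Tagln (647) and lowest for Slc22a6 (1579.5), Slc16a4 (1268) and Egf (2297). Replicate 2 was highest for Sox9 (909), Cyp1a1 (410.2), Slc22a24 (1684), Slc6a13 (1269) and Lrp2 (3101). It was lowest for Lcn2 (44.8), Cd44 (139), F5 (193) and Hbb-b1 (170.1).

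The change at 120 h differed from that at 24 h, by the direct limma contrast between both times, in 16 named genes. The log2 difference of 120 h less 24 h was -2.31 for Hmox1, -2.10 for Zfand2a, -1.72 for Hspb1, -1.59 for Hsph1 and -1.59 for Srxn1. It was -2.55 for Hba-a3, -2.48 for Hbb, -2.28 for Hbb-b1, -2.16 for Alas2 and -1.95 for Ahsp. It was 1.76 for Rimbp2, 1.54 for Tf, 1.30 for Tox, 1.17 for Mcoln3, 1.06 for Col11a1 and 1.04 for Sema5a.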

How the results depend on the processing

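Against naïve, 489 probe sets were called, and leaving out each array in turn gave 204 to 914, highest without Vehicle replicate 1. The count was 1911 with no fold threshold and 941 with array weights, whose estimation stopped before it converged. Other settings stayed within 1.5 times of it: 694 with an offset of 1 (456 higher, 238 lower), 432 after quantile normalization (185 higher, 247 lower), 603 by unadjusted p with 2-fold, 455 with a filter on dim probe sets, 404 by the unmoderated fit, 416 over all probe sets, 510 with 2 groups only and 373 with each symbol once. Against 24 h, 33 were called, 2 to 401 with arrays left out in turn, 71 with no fold threshold, 279 by unadjusted p, 1061 with array weights (427 higher, 634 lower), 19 with each symbol once (6 and 13), 14 with 2 groups only (0 and 14) and 8 by the unmoderated fit (2 and 6). The split of 9 higher and 24 lower turned to 187 and 90 without Vehicle 24 h replicate 1. The cause of these shifts was not tested.

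Replicate numbers did not pair the samples: deviations of same-numbered animals correlated between -0.21 and 0.30 over probe sets, and 1 of 5 correlated best with its own number. With the replicate block 479 were called against naïve (260 higher, 219 lower) and 57 against 24 h (16 higher, 41 lower).

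Of 104 called genes named in the text, 50 stayed called under all alternatives listed and with each array left out, and 88 under the alternatives that leave out no array. Of the other 16, the unmoderated fit lost Runx1, Klf6, Lif, Col1a1, Adam12, Plk1, Slc22a7, Slc7a13, Slc9a3, Slc2a5, Slc16a4 and Tmem72, quantile normalization lost Col6a3, Fgf10 and Col11a1, and the fit with 2 groups only lost Trem2. Havcr1, Lcn2, Fgb, A2m, Lox, Vim, Ccna2, Slc7a12, Cyp1a1 and Tnfrsf11b were among the 50. The change of Rimbp2 against naïve (-0.14) turned to 0.33 with array weights and 0.40 without Vehicle 120 h replicate 4, and ran from -0.33 to 0.40 over the arrays left out. With 5 animals a group, of which 1 stood apart, the call of a gene near the threshold rests on single arrays.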
